A study of Mus musculus with 10 samples.

Results

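The inhibitors of cyclin-dependent kinases of the CIP and INK4 families, with the retinoblastoma proteins on which their action converges, were followed as 9 genes in mouse prostate organoids after chemical or genetic targeting of EZH2. They were the rows of both deposited expression tables with the symbols CDKN1B, CDKN1C, CDKN2A, CDKN2B, CDKN2C, CDKN2D, RB1, RBL1 and RBL2, that is 9 of the 24016 genes with a usable symbol in both tables. The organoids, 3-dimensional epithelial cultures, were grown from dorsal-lateral prostate tissue of 8-week-old C57BL/6 mice. Every group carried overexpressed cMYC, floxed EZH2 alleles and an inducible PSA-CreERT2, a Cre recombinase that Tamoxifen activates and that is made where the PSA promoter is active, and every culture held 10 nM R1881, a synthetic androgen. RNA was taken at day 3 from 3 libraries given 1 µM DZNep and 3 given DMSO (the chemical experiment), and from 2 given 1 µM Tamoxifen and 2 given ethanol, EtOH (the genetic experiment). DZNep blocks the hydrolysis of S-adenosylhomocysteine and served as an EZH2 inhibitor. Nothing in the labels ties replicates to different animals or cultures. A p-value here therefore describes the spread among libraries, and that spread could be technical.

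Cyclin D with CDK4 or CDK6, and cyclin E or A with CDK2, drive cells from G1 into S phase by phosphorylating the pocket proteins pRb (RB1), p107 (RBL1) and p130 (RBL2), which otherwise hold E2F transcription factors in check. INK4 proteins (p16, p15, p18 and p19, from CDKN2A to CDKN2D) bind CDK4 and CDK6, whereas p27 (CDKN1B) and p57 (CDKN1C) of the CIP family also inhibit CDK2 complexes. EZH2 is the methyltransferase of Polycomb repressive complex 2 (PRC2), and CDKN2A, CDKN2B and CDKN1C are known genes repressed by that complex in other cells. CDKN2A has separate start sites for p16INK4a and for p19ARF, a protein of unrelated sequence that stabilises p53. Both transcripts share their later exons, and the deposited value is 1 number for the gene, so they could not be told apart.

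The start regions that bear on this point are printed from RefSeq (build GRCm38.p6; 250 bases before each start site, 5′ to 3′ on the strand of the gene), with every CpG in capitals because PRC2 is known to favour CpG-rich starts. The CDKN2A pair and CDKN2B are shown as the Polycomb-repressed locus, and CDKN1B and RBL2 as genes with a called change.
CDKN2A, upstream start, p19ARF (chr4:89294620-89294869, minus strand): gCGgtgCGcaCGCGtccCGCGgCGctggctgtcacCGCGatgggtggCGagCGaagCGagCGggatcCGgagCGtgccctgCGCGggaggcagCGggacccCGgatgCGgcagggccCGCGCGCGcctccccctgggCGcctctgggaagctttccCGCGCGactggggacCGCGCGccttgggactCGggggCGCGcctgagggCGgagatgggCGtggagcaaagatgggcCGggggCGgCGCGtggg
CDKN2A, downstream start, p16INK4a (chr4:89282193-89282442, minus strand): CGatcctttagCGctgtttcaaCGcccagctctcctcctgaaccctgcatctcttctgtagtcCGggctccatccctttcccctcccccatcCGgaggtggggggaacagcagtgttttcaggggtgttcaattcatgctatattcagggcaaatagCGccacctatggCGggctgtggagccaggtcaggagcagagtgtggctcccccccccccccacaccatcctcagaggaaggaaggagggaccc
CDKN2B (chr4:89311033-89311282, minus strand): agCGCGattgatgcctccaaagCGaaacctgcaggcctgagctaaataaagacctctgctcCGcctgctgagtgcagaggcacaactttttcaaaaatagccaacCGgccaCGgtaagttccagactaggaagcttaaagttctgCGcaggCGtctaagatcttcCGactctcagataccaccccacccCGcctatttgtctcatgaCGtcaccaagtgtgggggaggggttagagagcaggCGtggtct
CDKN1B (chr6:134920151-134920400, plus strand): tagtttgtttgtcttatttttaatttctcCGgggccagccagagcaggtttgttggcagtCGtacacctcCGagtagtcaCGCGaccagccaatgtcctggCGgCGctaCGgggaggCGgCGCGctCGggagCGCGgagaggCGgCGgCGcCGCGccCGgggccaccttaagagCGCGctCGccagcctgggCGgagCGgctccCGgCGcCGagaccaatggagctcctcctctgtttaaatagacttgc
RBL2 (chr8:91069807-91070056, plus strand): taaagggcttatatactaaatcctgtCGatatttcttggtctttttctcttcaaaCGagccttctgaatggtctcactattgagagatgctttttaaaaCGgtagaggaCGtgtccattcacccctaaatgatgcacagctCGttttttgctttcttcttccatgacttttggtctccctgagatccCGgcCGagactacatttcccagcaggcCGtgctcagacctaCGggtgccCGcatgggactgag
Over the full 300 bases, the p19ARF start held 45 CpG, a number reached by 1.93% of the 32851 promoters in the table, and the p16INK4a start 12. CDKN2B had 18, CDKN1B 30 and RBL2 14, against a median of 7 over all promoters. Neither start of CDKN2A can be assigned a share of the RPKM given here.

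The deposited values were log2(RPKM + 1), with RPKM the reads scaled by transcript length and library size, so levels can be compared between genes. Libraries listed 15021 to 15404 genes above 0, and RPKM totals ran from 469455 to 512726. Absolute depth is not known from RPKM. From the spacing of the lowest values, depth relative to the first control library of a table lay between 0.755 and 1.16, a ratio held by 16.4% to 19.8% of the weakly expressed genes used. Epithelial markers were high and all 9 were at 1 RPKM or more in every group, with summed levels of 5050 to 5177 RPKM in DZNep, 3667 to 3815 in DMSO, 3256 to 3332 in Tamoxifen and 3859 to 3882 in EtOH. Summed endothelial markers reached at most 0.486 RPKM and summed neuroendocrine markers 7.99 RPKM in any library. The 11 fibroblast and smooth muscle markers summed to 8.52 to 9.62 RPKM in DZNep and 3.18 to 4.40 in DMSO, with COL1A2, COL3A1 and DES at 0 in all 6 libraries. They summed to 2.91 to 4.37 RPKM in Tamoxifen and 3.50 to 3.95 in EtOH. The 7 immune markers summed to 16.2 to 18.04 RPKM in DZNep, 13.5 to 16.9 in DMSO, 12.3 to 14.4 in Tamoxifen and 11.7 to 14.3 in EtOH. CD68 was the 1 of them at 1 RPKM or more in each group, so these sums are nearly all CD68. None of the other immune markers exceeded 0.0672 RPKM in any library. The part of the cells behind these markers in the results below was not tested. EZH2 itself measured 22.5, 24.2 and 24.7 RPKM in DZNep, against 30.4, 29.8 and 27.1 RPKM in DMSO, without overlap (change -0.28; limma adjusted p = 0.0142, and 0.0652 without DMSO 2). It measured 32.01 and 33.2 RPKM in Tamoxifen, against 27.9 and 34.0 RPKM in EtOH, and these groups overlapped (change 0.08; limma adjusted p = 0.635). A value for the whole gene does not check the deletion of the floxed part.

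All 9 genes were expressed in all 10 libraries, from 2.90 RPKM (CDKN1C, Tamoxifen 1) to 46.0 RPKM (CDKN1B, EtOH 2), and all 9 passed the filter of a mean of 1 RPKM. CDKN1B was the most abundant, with a mean of 42.7 RPKM over the libraries of the chemical experiment, higher than 84.2% of the genes tested there. CDKN2A followed at 26.6 RPKM, then RBL1 at 18.8, CDKN2B at 17.2, CDKN2C at 15.8, RBL2 at 8.63, CDKN2D at 6.59, RB1 at 6.25 and CDKN1C at 4.03. In DMSO libraries the ranges of RBL1 (18.9 to 20.7 RPKM) and CDKN2B (16.6 to 17.6 RPKM) did not meet, those of CDKN2D and RB1 overlapped, and the lowest RBL2 value and the highest CDKN2D value both stood at 7.56 RPKM. CDKN2B (16.6 to 17.6 RPKM) lay above CDKN2C (15.7 to 16.2 RPKM) in DMSO. In EtOH libraries CDKN2C spanned 14.8 to 20.8 RPKM and overlapped with both RBL1 and CDKN2B. The 2 genes of the INK4 locus that PRC2 is known to repress were thus at 25.03 RPKM or more (CDKN2A) and 16.1 RPKM or more (CDKN2B) in every library, those without DZNep or Tamoxifen included.

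**Figure D1:**
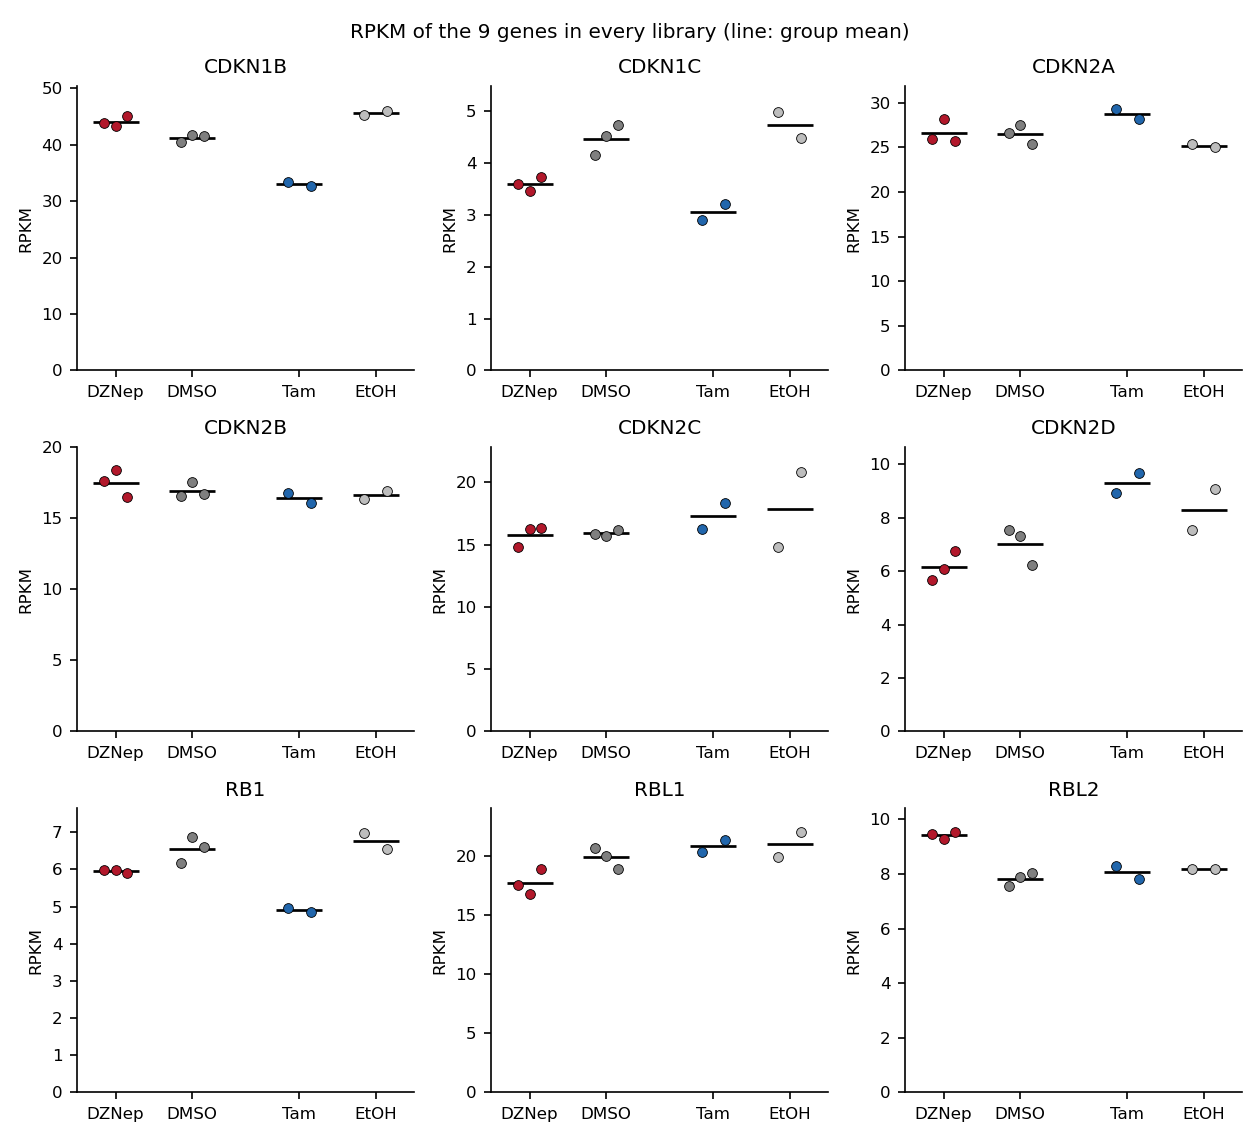
RPKM of each of the 9 genes in every library (points) with group means (lines), for DZNep and DMSO and for Tamoxifen (Tam) and EtOH; every axis starts at 0. CDKN1B and RB1 are lower in both Tam libraries than in every other library, RBL2 is higher in the 3 DZNep libraries, and CDKN2A lies between 25.03 and 29.3 and CDKN2B between 16.1 and 18.4 RPKM.

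The first comparison asked what DZNep did to the inhibitors. RBL2, which encodes p130, the pocket protein typical of resting cells, was higher in DZNep, and CDKN1C, which encodes p57, was lower. The other 7 did not pass the test, among them CDKN2A and CDKN2B. With limma and Benjamini-Hochberg adjustment over 11143 genes, 2 of the 9 were called, where 27.7% of all genes tested were (16.6% higher and 11.1% lower). The DZNep and DMSO libraries did not overlap for 5 of the 9 genes (CDKN1B and RBL2 higher, CDKN1C, RB1 and RBL1 lower), against 45.5% of all genes tested.

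RBL2 measured 9.47, 9.29 and 9.55 RPKM in DZNep, against 7.56, 7.91 and 8.03 RPKM in DMSO. All DZNep libraries lay above all DMSO libraries, and the means stood at 9.43 ± 0.132 RPKM in DZNep and 7.83 ± 0.243 RPKM in DMSO (SD, n = 3 each). The change on the log2(RPKM + 1) scale, used for every change given here, was 0.24 (SE 0.0457; limma adjusted p = 0.00828). The call was kept under all 15 alternative settings, with adjusted p between 0.00278 and 0.0448. Among its fellow pocket proteins, RBL1 (p107), which is itself made mainly in cycling cells, measured 17.6, 16.8 and 18.9 RPKM in DZNep, against 20.7, 20.03 and 18.9 RPKM in DMSO. The highest DZNep library and the lowest DMSO library were nearly equal, and the change of -0.16 did not pass (SE 0.0587; limma adjusted p = 0.0834). It passed without DZNep 3 (adjusted p = 0.0484) and after quantile normalization (0.0425).

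RB1, the founding member of the family and a tumour suppressor, measured 5.97, 5.99 and 5.89 RPKM in DZNep, against 6.18, 6.87 and 6.60 RPKM in DMSO. The groups did not overlap, and the change of -0.12 did not pass (SE 0.0519; 95% confidence interval -0.24 to 0.0020; limma adjusted p = 0.125). It passed after quantile normalization, at -0.16 (adjusted p = 0.0485). As a share of the summed RPKM of the 3 pocket protein genes, RBL2 made up 27.8% to 29.0% in DZNep and 21.96% to 23.9% in DMSO. RBL1 made up 52.3% to 55.1% in DZNep and 56.4% to 60.1% in DMSO. The sum itself was 33.1 ± 1.16 RPKM in DZNep and 34.3 ± 0.635 RPKM in DMSO (SD, n = 3 each), a difference within the spread of the libraries. The RBL2 share was higher, and the RBL1 share lower, in every DZNep library than in every DMSO library.

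**Figure D2:**
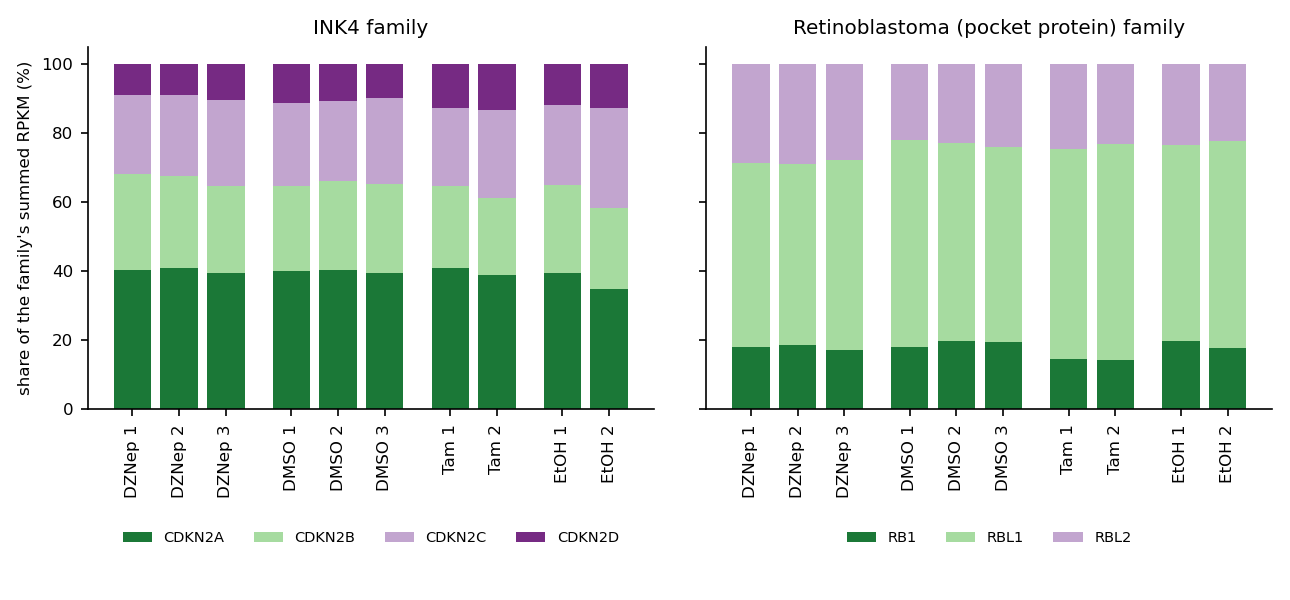
Share of each gene in the summed RPKM of its family in every library, for the INK4 genes (left) and the pocket protein genes (right). The RBL2 share is 27.8% to 29.0% in DZNep and 21.96% to 23.9% in DMSO, and the RB1 share 14.2% to 14.7% in Tam and 17.8% to 19.9% in EtOH.

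The start of RBL1 is shown because p107 is known as an E2F-controlled gene; capitals mark the match to the E2F motif TTTNGCGC in the 250 bases before the start site.
RBL1 (chr2:157204535-157204784, minus strand): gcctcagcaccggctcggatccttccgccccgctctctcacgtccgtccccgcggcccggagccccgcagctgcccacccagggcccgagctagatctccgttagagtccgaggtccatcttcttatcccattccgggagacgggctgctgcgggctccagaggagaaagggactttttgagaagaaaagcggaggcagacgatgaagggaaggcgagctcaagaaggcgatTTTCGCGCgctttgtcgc
The match TTTCGCGC lay at positions -18 to -11 from the start site. Among the printed and other available promoters of the 9 genes, covering 7 genes and searched on both strands, the only further match was TTTAGCGC at -244 to -237 of the p16INK4a start of CDKN2A. This motif was present in 1.38% of all promoters. The cell cycle homology motif TTTGAA, present in 17.9% of promoters, was found at CDKN2B and RBL2, the E-box CACGTG (7.15%) at the second start of CDKN2C and the forkhead motif GTAAACA (3.65%) at none of them. A match is a description of letters and not a measured site.

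CDKN1C measured 3.59, 3.47 and 3.73 RPKM in DZNep, against 4.15, 4.52 and 4.74 RPKM in DMSO. The groups did not overlap, and the change was -0.25 (SE 0.0603; limma adjusted p = 0.0194). The call was lost without DZNep 2 (adjusted p = 0.0742), DMSO 2 (0.0774) or DMSO 3 (0.0642). In bulk RNA, fewer cells that express a gene and less of its RNA per cell cannot be told apart. CDKN1B, the p27 gene, measured 43.9, 43.3 and 45.1 RPKM in DZNep, against 40.5, 41.7 and 41.6 RPKM in DMSO. These groups did not overlap either, yet the change of 0.09 did not pass (SE 0.0435; limma adjusted p = 0.143). CDKN1A, which encodes p21, the remaining member of the CIP family and a p53 target, measured 84.2, 82.1 and 70.6 RPKM in DZNep, against 61.7, 65.5 and 62.5 RPKM in DMSO. It rose by 0.31 (SE 0.0716; limma adjusted p = 0.0164), a call lost without DZNep 2 (adjusted p = 0.0676). The CIP family thus held a rise of CDKN1A, a fall of CDKN1C and no called change of CDKN1B.

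The INK4 genes did not pass in DZNep. CDKN2A measured 25.9, 28.2 and 25.8 RPKM in DZNep, against 26.6, 27.6 and 25.4 RPKM in DMSO, and the change was 0.00 with a 95% confidence interval of -0.12 to 0.13 (limma adjusted p = 0.962). CDKN2B, which encodes the TGF-beta responsive p15, measured 17.6, 18.4 and 16.5 RPKM in DZNep, against 16.6, 17.6 and 16.7 RPKM in DMSO. Its change was 0.04 (95% confidence interval -0.08 to 0.17; limma adjusted p = 0.561). For both genes the libraries of the groups overlapped. CDKN2C (p18) differed by -0.01 (95% confidence interval -0.13 to 0.11; limma adjusted p = 0.902). CDKN2D (p19) measured 5.66, 6.06 and 6.74 RPKM in DZNep, against 7.56, 7.31 and 6.22 RPKM in DMSO, a change of -0.17 that did not pass (limma adjusted p = 0.168). The summed RPKM of the INK4 genes was 66.1 ± 2.56 in DZNep and 66.4 ± 1.81 in DMSO (SD, n = 3 each). CDKN2A supplied 39.4% to 40.8% of that sum in DZNep and 39.4% to 40.4% in DMSO.

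The second comparison asked the same of Tamoxifen. CDKN1B was lower in Tamoxifen and was the 1 gene of the 9 that limma called, where 2.07% of the 11123 genes tested were called (0.692% higher and 1.38% lower). CDKN1C and RB1 were lower in both Tamoxifen libraries than in both EtOH libraries but narrowly missed the threshold. The Tamoxifen and EtOH libraries did not overlap for 4 of the 9 genes (CDKN2A higher, CDKN1B, CDKN1C and RB1 lower), against 59.9% of all genes tested.

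CDKN1B measured 33.5 and 32.7 RPKM in Tamoxifen, against 45.3 and 46.0 RPKM in EtOH. The lower EtOH library exceeded the higher Tamoxifen library by 11.8 RPKM, and the means were 33.1 ± 0.566 RPKM in Tamoxifen and 45.7 ± 0.522 RPKM in EtOH (SD, n = 2 each), 27.6% lower in Tamoxifen. The change was -0.45 (SE 0.0518; limma adjusted p = 0.0330). The call was lost without EtOH 1 (adjusted p = 0.0582), Tamoxifen 1 (0.208) or Tamoxifen 2 (0.318), and with no filter on low values (0.117). Leaving out a library leaves 1 library in its group, which is assumed to vary like the others, and the calls among all genes also fell, to 22 higher and 14 lower without Tamoxifen 1 and to 23 higher and 8 lower without Tamoxifen 2, against 77 higher and 153 lower with all 4 libraries. An exact permutation test of 2 against 2 libraries cannot go below 0.333.

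CDKN1C measured 2.90 and 3.21 RPKM in Tamoxifen, against 4.98 and 4.48 RPKM in EtOH. Its change of -0.50 was the largest in size of the 9 (SE 0.0800; limma adjusted p = 0.0523). RB1 measured 4.96 and 4.84 RPKM in Tamoxifen, against 6.98 and 6.54 RPKM in EtOH, a change of -0.39 (SE 0.0612; limma adjusted p = 0.0503). Both missed the threshold by little, and CDKN1C passed under 6 of 12 alternatives and RB1 under 7 of 13. Both passed with TMM scaling (limma adjusted p = 0.0432 for CDKN1C and 0.0404 for RB1) and with robust variances (0.0221 and 0.0245). They also passed with a pseudocount of 0.1 (0.0432 and 0.0394) and in the joint fit (0.00396 and 0.00387). Neither passed with no filter on low values or with no variance trend. Both passed without EtOH 2, and neither did without EtOH 1, Tamoxifen 1 or Tamoxifen 2. Over the left-out libraries the change ran from -0.56 to -0.44 for CDKN1C and from -0.44 to -0.35 for RB1. RB1 made up 14.2% to 14.7% of the summed pocket protein RPKM in Tamoxifen and 17.8% to 19.9% in EtOH.

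CDKN2A measured 29.3 and 28.1 RPKM in Tamoxifen, against 25.4 and 25.03 RPKM in EtOH. The change of 0.18 did not pass (SE 0.0531; limma adjusted p = 0.127), nor did it under any of the 13 alternatives. CDKN2B measured 16.8 and 16.1 RPKM in Tamoxifen, against 16.4 and 16.9 RPKM in EtOH, a change of -0.02 (95% confidence interval -0.16 to 0.12; limma adjusted p = 0.842). CDKN2C measured 16.3 and 18.3 RPKM in Tamoxifen, against 14.8 and 20.8 RPKM in EtOH, where the EtOH libraries stood furthest apart and the interval was wide (-0.43 to 0.38; limma adjusted p = 0.938). CDKN2D measured 8.94 and 9.66 RPKM in Tamoxifen, against 7.53 and 9.07 RPKM in EtOH (change 0.15; limma adjusted p = 0.351). RBL1 (change -0.01; limma adjusted p = 0.951) and RBL2 (change -0.02; limma adjusted p = 0.842) differed by less than the spread of the libraries. CDKN1A measured 79.4 and 75.4 RPKM in Tamoxifen, against 77.2 and 80.8 RPKM in EtOH (change -0.03; limma adjusted p = 0.774).

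**Figure D3:**
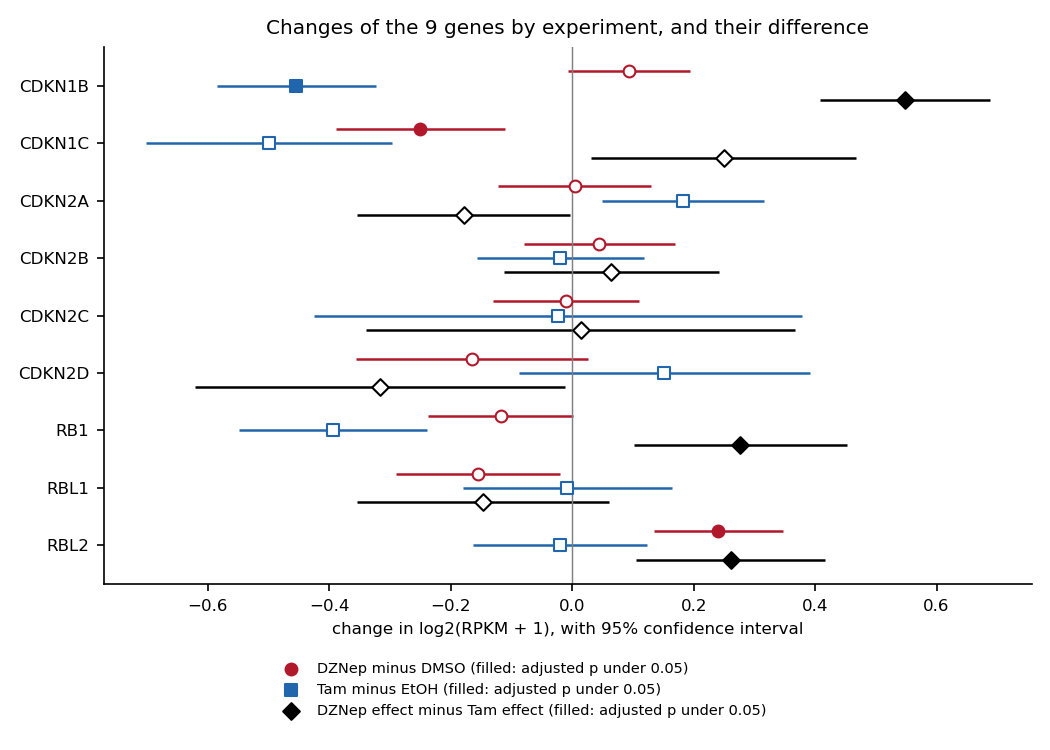
Change of each gene in log2(RPKM + 1) with its 95% confidence interval for DZNep minus DMSO (circles), Tam minus EtOH (squares) and the difference of the 2 changes (diamonds); filled symbols passed limma after adjustment. Filled symbols are RBL2 and CDKN1C for DZNep, CDKN1B for Tam, and CDKN1B, RB1 and RBL2 for the difference.

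The difference between the treatments was tested in 1 limma fit over all 10 libraries, in which each term is a change between libraries deposited together. Of the 9 genes 3 passed, all with the DZNep change above the Tamoxifen change, where 19.9% of the 10994 genes tested passed, 10.7% in that direction and 9.2% in the other. CDKN1B differed most, with a change of 0.09 in DZNep and -0.45 in Tamoxifen (difference 0.55, SE 0.0630; limma adjusted p = 5.01e-04), and this call was kept under all 18 alternatives. RB1 had values of -0.12 in DZNep and -0.39 in Tamoxifen (difference 0.28, SE 0.0789; limma adjusted p = 0.0345). RBL2 had values of 0.24 in DZNep and -0.02 in Tamoxifen (difference 0.26, SE 0.0700; limma adjusted p = 0.0276). The RB1 call was lost without DZNep 1 (adjusted p = 0.0536), DZNep 2 (0.0698), DMSO 3 (0.0572), Tamoxifen 1 (0.0831), Tamoxifen 2 (0.124) or EtOH 1 (0.115). The RBL2 call was lost without DMSO 2 (adjusted p = 0.0596), Tamoxifen 2 (0.128), EtOH 1 (0.0698) or EtOH 2 (0.0575). CDKN1C, lower in both treatments, had a difference of 0.25 that did not pass (95% confidence interval 0.03 to 0.47; limma adjusted p = 0.1001), and that interval is not adjusted for the number of genes.

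The genes whose library pattern lay closest to each called gene were found by the root mean square difference over the 10 libraries, after subtracting the mean of the control libraries of each table. For CDKN1B these were HSDL2 (0.0238), POLR3G (0.0259) and SMEK2 (0.0387), with a median over 10993 genes of 0.256. For CDKN1C they were MBLAC2 (0.0576), DDX3Y (0.0607) and AP3S1 (0.0608), and for RBL2 CTR9 (0.0236), ZFP317 (0.0244) and CYLD (0.0270). The genes nearest to CDKN1B had changes of 0.09, 0.11 and 0.08 in DZNep and of -0.43, -0.46 and -0.43 in Tamoxifen, in the order named. That these resemble the changes of CDKN1B follows from how the genes were chosen.

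Among genes of the machinery that the inhibitors restrain, limma called some lower in DZNep, in shares that lay well above those of all genes in some lists and near them in others. MKI67, the common proliferation marker, named after its values were seen, was higher, at 59.6 ± 2.62 RPKM in DZNep and 52.7 ± 0.960 RPKM in DMSO (SD, n = 3 each; change 0.18, limma adjusted p = 0.0334). Its call was lost without DZNep 2 (adjusted p = 0.0895), DZNep 3 (0.0671), DMSO 2 (0.0981) or DMSO 3 (0.0870). Of 13 G1 cyclins, their kinases and activators, limma called 6 lower (46.2%) and 0 higher, where 11.1% of all genes were lower and 16.6% higher in DZNep, and 7 had an unadjusted p under 0.05 in either direction. The list median was -0.16, where the median of all genes was 0.01. CCNA2, the cyclin of S phase, measured 47.3 ± 3.07 RPKM in DZNep and 61.3 ± 5.42 in DMSO (SD, n = 3 each; change -0.37, limma adjusted p = 0.0115). CCNE2 changed by -0.47 (limma adjusted p = 0.0126, and 0.0552 without DMSO 2). CCND1, a D cyclin that binds CDK4, changed by -0.23 (limma adjusted p = 0.0131, and 0.0727 without DMSO 2 or 0.0620 without DZNep 2). The number called lower was 1 without DMSO 2 and 2 without DZNep 2. In Tamoxifen, where 2.07% of all genes were called, limma called 0 of the 13. Of these, 4 had an unadjusted p under 0.05, and the list median was 0.02 (-0.02 with TMM scaling).

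Of 9 measured E2F and DP genes, 5 were lower (55.6%, against 11.1% of all genes) and 0 higher in DZNep (median -0.20). E2F8, a repressor of E2F targets, measured 9.27 ± 0.286 RPKM in DZNep and 13.0 ± 0.515 in DMSO (change -0.44; limma adjusted p = 8.46e-04), and the activator E2F1 6.17 ± 0.450 RPKM in DZNep and 8.602 ± 0.453 in DMSO (change -0.42; limma adjusted p = 0.00321; SD, n = 3 each). The number lower was 3 without DMSO 1, DZNep 2 or DZNep 3 and 2 without DMSO 2. The MuvB core binds p130 or p107 in resting cells and MYBL2 or FOXM1 later in the cycle. MYBL2 changed by -0.47 (limma adjusted p = 0.00101) and FOXM1 by -0.46 (0.00126), 28.6% of the list, whereas the core subunits LIN9 (-0.19), LIN37 (0.11), LIN52 (0.09), LIN54 (-0.16) and RBBP4 (0.01) did not pass with all libraries. Without DZNep 3, 4 of these 7 genes were called lower.

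Among 30 E2F target genes of DNA replication and repair, 5 were lower (16.7%, near the 11.1% of all genes) and 0 higher in DZNep (median -0.10). The licensing factor CDT1 changed by -0.41 (limma adjusted p = 0.00166), the ribonucleotide reductase subunit RRM2 by -0.42 (0.00256) and thymidine kinase TK1 by -0.38 (0.0142). The number lower was 3 without DMSO 2, DZNep 1 or DZNep 2, and 8 without DMSO 3. In Tamoxifen limma called 2.07% of all genes. It called 0 of 9 E2F and DP genes, 0 of 7 MuvB genes and 0 of 30 targets there. Their counts at an unadjusted p under 0.05 were 1, 2 and 4, and their medians 0.05, 0.07 and 0.15, where the median of all genes was 0.04. In the fit of the difference, 3 cyclin and kinase genes, 4 E2F and DP genes, 2 MuvB genes and 6 targets passed, all with the DZNep change below the Tamoxifen change, as for 9.2% of all genes. These were 23.1% of the cyclins and kinases, 44.4% of the E2F and DP genes, 28.6% of the MuvB genes and 20% of the targets. Without EtOH 1 each of these counts was 1, and without Tamoxifen 2 it was 0 for cyclins and kinases and 1 for the others. The E2F and DP count was also 1 without DMSO 2 and 2 without DZNep 3 or EtOH 2, and the target count 3 without DMSO 2. Of 12 genes of p27 turnover, CUL4A of a ubiquitin ligase was the 1 called in DZNep (change -0.16; limma adjusted p = 0.0238). That is 8.33%, where 27.7% of all genes were called in either direction. Without DMSO 2, DZNep 1 or DZNep 2, 0 were called, and CUL4A also lost its call without DMSO 3 (limma adjusted p = 0.0586). In Tamoxifen, where the CDKN1B transcript was lower, limma called 0 of these 12 genes, with 4 at an unadjusted p under 0.05.

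**Figure D4:**
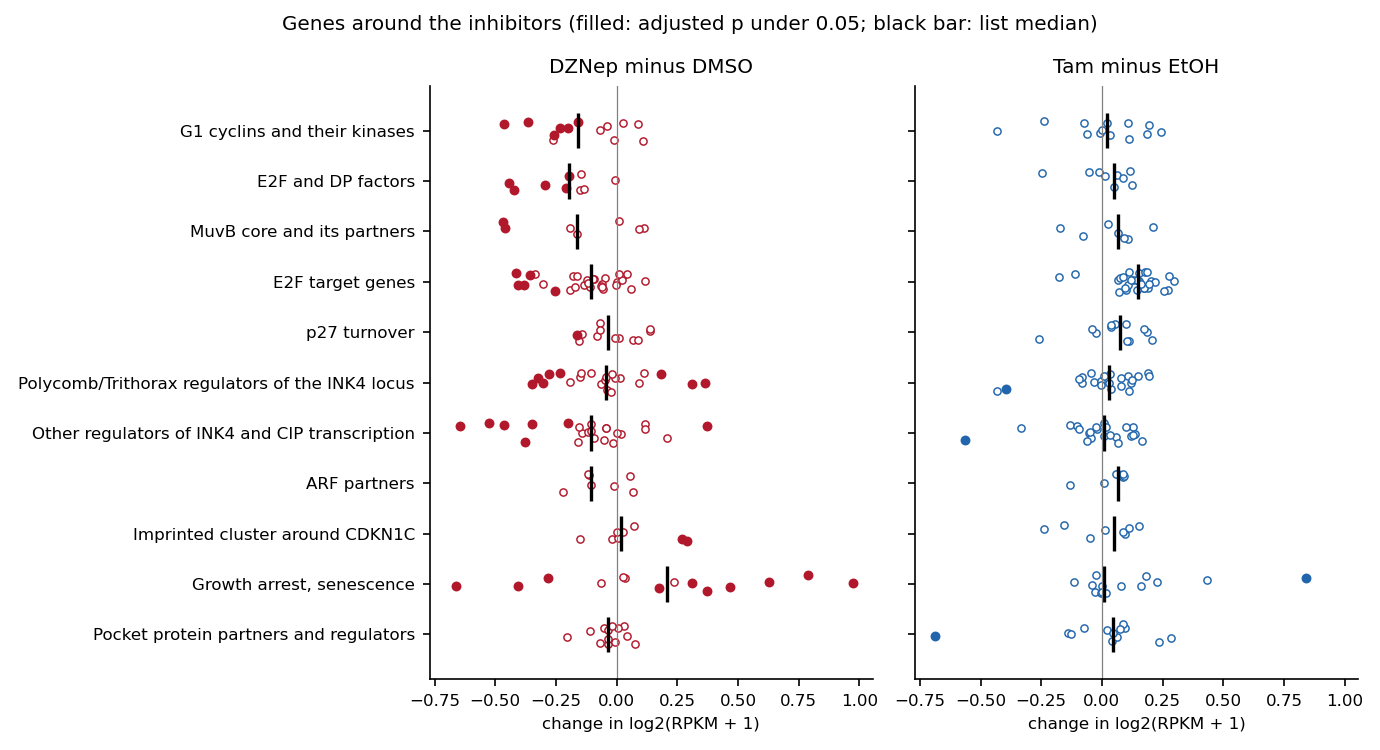
Change in log2(RPKM + 1) of every tested gene (points; filled where limma passed after adjustment) in 11 lists around the inhibitors, for DZNep minus DMSO (left) and Tam minus EtOH (right), with list medians as black bars. In DZNep the medians of cyclins, E2F and MuvB genes lie between -0.20 and -0.16, and in Tam between 0.02 and 0.07.

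Regulators of the INK4 locus moved in both directions in DZNep. Of 22 Polycomb and Trithorax genes 3 rose and 5 fell (median -0.05), 36.4% in either direction where 27.7% of all genes were called. RING1, a subunit of Polycomb repressive complex 1, measured 13.0 ± 1.03 RPKM in DZNep and 9.85 ± 0.216 in DMSO (change 0.36; limma adjusted p = 0.00492), CBX6, a chromodomain subunit, changed by -0.35 (0.00635) and the PRC2 subunit SUZ12 by -0.23 (0.00851). The number that rose was 1 without DZNep 2, and the number that fell 2 without DMSO 2. In Tamoxifen RNF2 was the 1 gene called of these 22 (4.55%, where 2.07% of all genes were called). RNF2 measured 14.2 ± 0.0780 RPKM in Tamoxifen and 19.01 ± 0.879 in EtOH (SD, n = 2 each), a change of -0.39 (limma adjusted p = 0.0439). BMI1, a repressor of the INK4 locus named here after its values were seen, narrowly missed the threshold with a log2 difference of -0.43 (limma adjusted p = 0.0504). The RNF2 call was lost without EtOH 1 (adjusted p = 0.0809), Tamoxifen 1 (0.273) or Tamoxifen 2 (0.382).

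Of 23 other regulators of INK4 and CIP transcription, 1 rose and 6 fell in DZNep, 30.4% in either direction and so near the 27.7% of all genes. The inhibitors of differentiation ID3 (change -0.65; limma adjusted p = 3.94e-04) and ID1 (-0.53; 0.00200), which repress CDKN2A in other cells, fell, and MYC, which represses CDKN2B through ZBTB17, rose by 0.37 (0.00375). ZBTB17, named after its values were seen, was itself lower (change -0.20, limma adjusted p = 0.0445), a call lost under 8 of 15 alternatives. Every group carried overexpressed cMYC, and its part in the MYC value was not tested. CDKN2A and CDKN2B had no called change in the same libraries. In Tamoxifen KLF4, a transcription factor of epithelia, was the 1 called of 23, at 48.1 ± 0.952 RPKM in Tamoxifen and 71.7 ± 0.0534 in EtOH (SD, n = 2 each; change -0.57, limma adjusted p = 0.0263), a call lost without Tamoxifen 1 (0.168) or Tamoxifen 2 (0.229). Downstream of p19ARF, limma called 0 of 7 partners in DZNep (1 at an unadjusted p under 0.05) and 0 of 7 in Tamoxifen (0 at that level). Of all genes 27.7% were called in DZNep and 2.07% in Tamoxifen. MDM2, the ubiquitin ligase that ARF binds, had a log2 difference of 0.07 in DZNep and 0.07 in Tamoxifen, and TRP53 of -0.11 in DZNep and 0.09 in Tamoxifen, none of which passed. Of 13 pocket protein partners limma called 0 in DZNep, against the same 27.7% of all genes (1 at an unadjusted p under 0.05; 1 was called lower without DMSO 3). In Tamoxifen it called PPP1CB, a catalytic subunit of the phosphatase that acts on pRb (change -0.69; limma adjusted p = 0.0270), lost without Tamoxifen 1 (0.123) or Tamoxifen 2 (0.229).

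The genomic neighbours of the inhibitors were also read. MTAP, which lies next to CDKN2A in the RefSeq gene order, did not pass, with a log2 difference of 0.07 in DZNep (limma adjusted p = 0.454) and -0.13 in Tamoxifen (0.276). DMRTA1, on the other side of CDKN2B, was listed at 0 in all 10 libraries, and ELAVL2 reached at most 0.0212 RPKM. In the imprinted cluster that holds CDKN1C, 8 of 15 genes passed the filter, and the 2 called higher in DZNep were 25% of them, where 16.6% of all genes were higher. CD81 rose by 0.29 in DZNep (limma adjusted p = 0.00443) and TSSC4 by 0.27 (0.0446), and TSSC4 lost its call without any 1 of the DZNep libraries or DMSO 2 or DMSO 3 (adjusted p from 0.0800 to 0.145). The immediate neighbours KCNQ1 (change 0.03; limma adjusted p = 0.836) and SLC22A18 (-0.02; 0.820), named after their values were seen, did not pass in DZNep, where CDKN1C was lower. In Tamoxifen, where 2.07% of all genes were called, limma called 0 of the 8, with 1 at an unadjusted p under 0.05. KCNQ1 had a change of -0.24 there (limma adjusted p = 0.108). Of 4 measured imprinted genes elsewhere, DCN (0.92; limma adjusted p = 8.99e-04) and PLAGL1 (0.27; 0.0292) rose in DZNep, and limma called 0 in Tamoxifen, with 1 at an unadjusted p under 0.05. The 2 that rose in DZNep were 50% of the 4, where 16.6% of all genes were higher. DCN is also a fibroblast marker, and the PLAGL1 call was lost without DMSO 2 (adjusted p = 0.0919), DMSO 3 (0.0659), DZNep 2 (0.0973) or DZNep 3 (0.0707).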

How the data were processed

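RNA-seq was run on 10 libraries. Per the labels' protocols, TRIzol extraction gave 500 ng of RNA per sample for stranded TruSeq mRNA libraries. The submitters' processing notes name bcl2fastq 2.18, STAR, Cufflinks and build mm9, with no other version, annotation or use of strand given. Each experiment has its own deposited matrix of log2 RPKM, whose lowest value of 0 matches log2(RPKM + 1) by the authors; joint normalization is not stated. From the genetic matrix, 2 rows lacking a symbol and 27 whose symbols had turned into dates were left out.

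RPKM was obtained by undoing the log2 step. Genes averaging 1 RPKM or more entered limma 3.58.1 in R 4.3.3 (moderated, two-sided, with a variance trend on the mean), fitted per experiment with Benjamini-Hochberg adjustment at 0.05. The procedure was tested on simulated data. Other settings tried were another pseudocount (0.1), other filters (none, or 5 RPKM), TMM (trimmed mean) or quantile scaling, a joint fit, a replicate block, robust variances, no variance trend and leaving out each library. The members and the 18 lists were chosen with earlier results of these data known. Named were all 9 genes, EZH2, up to 3 called members of a list by smallest p, and the 3 nearest patterns of each called gene; lists of up to 7 measured genes could be named whole, CDKN1A was added as the remaining CIP member, and other exceptions are marked. Promoters were searched for 4 motifs. Figures were drawn with matplotlib 3.10.9.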

Additional observations from a re-analysis of the deposited data

Results flagged for a closer look

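3 genes were picked out because their change differed between DZNep and Tamoxifen in the limma fit over all 10 libraries. CDKN1B had a difference of 0.55 (DZNep change 0.09, Tamoxifen change -0.45), with all 3 DZNep libraries above DMSO and both Tamoxifen libraries below EtOH. RB1 had a difference of 0.28, and its libraries were lower than control in both treatments. RBL2 had a difference of 0.26, with all 3 DZNep libraries above DMSO while the Tamoxifen and EtOH libraries overlapped. The treatments also differ in agent, vehicle and number of libraries, which cannot be told apart from the difference between chemical and genetic targeting.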

How the results depend on the processing

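Of 411 values of the 9 genes under alternative settings, 394 kept their direction and 358 also their side of the threshold. RBL2 in DZNep and the CDKN1B difference kept their calls throughout. In DZNep the number of genes called was 2, with 1 higher and 1 lower; with a filter of 5 RPKM, which leaves out CDKN1C, it was 1, with 0 lower, and after quantile normalization 4, with 3 lower. Leaving out each library gave 1 to 3 called and 0 to 2 lower. In Tamoxifen, with 1 called and that lower, the number called, all lower, was 3 with a pseudocount of 0.1, TMM scaling, robust variances or the joint fit, 2 after quantile normalization and 0 with no filter, and 0 to 3 over left-out libraries. The cause was not tested. For the difference, 1 to 3 genes were called, all higher, when each library was left out. The change of CDKN2A in DZNep was -0.019 after quantile normalization and -0.017 with TMM scaling, against 0.0039 as reported. Leaving out single libraries turned small values: CDKN2A (-0.036 to 0.031) and CDKN2C (-0.033 to 0.034) in DZNep; CDKN2B (-0.048 to 0.0091), CDKN2C (-0.26 to 0.21), RBL1 (-0.076 to 0.060), RBL2 (-0.058 to 0.017) and EZH2 (-0.058 to 0.21) in Tamoxifen; and CDKN2C in the difference (-0.22 to 0.25). None of these was called.

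Deviations gave little sign that replicate numbers pair the libraries, and could not settle it. Those of same-numbered libraries correlated at 0.059, 0.059 and -0.068 in the chemical experiment, and 1 of 3 DZNep libraries correlated best with its own number. In the genetic experiment they correlated at 0.040, where 2 libraries per group can give only 1 size, here 0.040 for equal and -0.040 for unequal numbers. With a replicate block 1 gene was called in DZNep, with 0 lower (CDKN1C, adjusted p = 0.0574), 3 in Tamoxifen, all lower, and 1 for the difference, higher. List counts moved too. In DZNep the block left 1 cyclin or kinase gene, 2 E2F and DP genes, 3 E2F targets and 0 p27 turnover genes lower. E2F targets lower numbered 8 after quantile normalization or TMM scaling and 3 with no filter, where 5 were reported, and 8 Polycomb genes were lower after quantile normalization, where 5 were. With no filter 0 genes of the lists around the inhibitors were called in Tamoxifen. Over all genes the block gave 1016 higher and 594 lower in DZNep (1850 and 1238 reported). In Tamoxifen the block gave 429 higher and 449 lower, and robust variances 261 higher and 385 lower (77 and 153 reported). The unknown depth limits what can be said of low genes.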

Other observations

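The list of growth arrest and senescence markers holds genes that are known to rise in arrest and proliferation genes that are known to fall, so its counts and median give no single direction. Of 14 measured genes, 7 rose (50%, against 16.6% of all genes) and 3 fell (21.4%, against 11.1%) in DZNep, with a list median of 0.21. The proliferation markers, named after their values were seen, were split: MKI67 rose by 0.18, while TOP2A changed by -0.41 (limma adjusted p = 0.00768). LMNB1, a lamin lost in senescent cells, changed by -0.28 (limma adjusted p = 0.0180), a call lost without DZNep 1 (adjusted p = 0.0532), DZNep 2 (0.0502) or DMSO 2 (0.0777). CXCL1, a chemokine of the secretory response of senescent cells, measured 64.6 ± 4.41 RPKM in DZNep and 32.4 ± 2.77 RPKM in DMSO (SD, n = 3 each; change 0.97, limma adjusted p = 1.66e-04). GDF15, a stress-induced cytokine, rose by 0.63 (limma adjusted p = 2.81e-04). GLB1, the lysosomal beta-galactosidase used as a senescence marker, measured 7.79 ± 0.356 RPKM in DZNep and 12.9 ± 0.454 RPKM in DMSO and fell by 0.66 on the log2 scale (limma adjusted p = 1.67e-04). In Tamoxifen GDF15 was the 1 called of 14 (7.14%, where 2.07% of all genes were called). GDF15 measured 20.6 ± 1.53 RPKM in Tamoxifen and 11.1 ± 0.725 RPKM in EtOH (SD, n = 2 each), a change of 0.84 (limma adjusted p = 0.0263). This call was lost without Tamoxifen 1 (change 0.91) or Tamoxifen 2 (change 0.77). INK4 genes, whose rise often marks senescence, had 0 limma calls in either experiment, with 0 of 4 in DZNep and 1 of 4 in Tamoxifen (CDKN2A) at an unadjusted p under 0.05.

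Among the epithelial markers, the basal keratins KRT14 (change 0.85; limma adjusted p = 7.18e-05) and KRT5 (0.42; 0.00150) rose in DZNep. KRT14 fell in Tamoxifen, with a change of -0.49 (limma adjusted p = 0.0424), a call lost without EtOH 1 (adjusted p = 0.0714), Tamoxifen 1 (0.281) or Tamoxifen 2 (0.388). Of the fibroblast and smooth muscle list DCN and ACTA2 were tested and rose in DZNep, by 0.92 and 1.11. At 1 RPKM or more were 2 genes of this list in DZNep and 1 in DMSO, so 1 of them passed the filter through its DZNep level. The other 9 were not tested and went both ways. COL1A1 averaged 0.0363 RPKM in DZNep and 0.0904 in DMSO, and TAGLN 0.170 in DZNep and 0.141 in DMSO. ENO2, the 1 neuroendocrine marker tested, changed by -0.48 (limma adjusted p = 0.0112), and the 1 immune marker tested, CD68, did not pass at 0.21 (0.0980; it passed without DMSO 2). No endothelial marker passed the filter.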
